A study of Mus musculus with 2 samples.

Results

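The interleukin-1 family and inflammasome genes described here were 9 rows of the count tables, taken by symbol from a list of names: Il1a, Il1b, Il18, Il1rn, Il1r2, Il18bp, Il1rap, Casp1 and Nlrp3. All 9 were found among the 27998 genes of both tables. They were measured by single-cell RNA sequencing in CD45+ leukocytes of TSA tumours, grown under the skin of Balb/c mice from a mouse mammary adenocarcinoma line. One group was left untreated. The other drank water with 0.5% nicotinamide (NAM), the amide of vitamin B3, for 10 days. The study used female mice of 6 to 15 weeks. Tumours of 3 mice were pooled per group before magnetic selection of CD45+ cells, and each group gave 1 library. Hence no difference has a replicate check, no test was possible, and NAM and a difference between the 2 libraries cannot be told apart. Depth was counted in unique molecular identifiers (UMIs), which tag single captured RNA molecules. The untreated library held 2922 cells with 29161823 UMIs, and 3276 cells with 32090120 UMIs came from NAM. The median cell held 9056 and 9128 UMIs, respectively, and 11 cell barcodes occurred in both libraries.

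Interleukin-1 alpha and interleukin-1 beta are related cytokines that bind the same receptor and start a fever and neutrophil response. Interleukin-1 beta and interleukin-18 are made as inactive precursors, which the protease caspase-1 cuts once a sensor such as NLRP3 has assembled an inflammasome. The pathway is held in check by a receptor antagonist, by a decoy receptor and by a soluble binding protein. In tumours, macrophages and monocytes are known sources of these cytokines.

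Each of the 9 genes is protein coding. On mm10 (GRCm38, GENCODE vM21) Il1a lies at chr2:129299610-129309972 and Il1b at chr2:129364570-129371139, both on the minus strand. Il1rn is also on chromosome 2, at chr2:24336853-24351494 on the plus strand. Il1r2 lies at chr1:40074079-40125231, Il1rap at chr16:26581704-26730117, Il18 at chr9:50554827-50581840, Casp1 at chr9:5298517-5307265 and Nlrp3 at chr11:59541568-59566956, all on the plus strand. Il18bp lies at chr7:102014885-102018690 on the minus strand. Reads of 3′ libraries count molecules and do not tell isoforms of these genes apart.

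The stretches upstream of Il1a and Nlrp3 are shown because both genes were lower in NAM in every cell group in which they could be compared, and that of Il1b because it neighbours Il1a and was nearly level in macrophages. Each run holds the 249 bases from 250 to 2 bases before the RefSeq start (GRCm38.p6), read 5′ to 3′ on the strand of the gene, and overlaps no annotated exon. They span chr2:129309974-129310222 (minus strand) for Il1a, chr2:129371141-129371389 (minus strand) for Il1b and chr11:59541319-59541567 (plus strand) for Nlrp3. Capitals mark matches to 1 of 4 motifs searched on both strands.
Il1a: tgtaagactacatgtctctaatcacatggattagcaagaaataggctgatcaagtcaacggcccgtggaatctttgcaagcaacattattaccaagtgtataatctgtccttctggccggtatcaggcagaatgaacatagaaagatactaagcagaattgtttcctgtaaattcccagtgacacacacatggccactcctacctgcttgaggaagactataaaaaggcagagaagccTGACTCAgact
Il1b: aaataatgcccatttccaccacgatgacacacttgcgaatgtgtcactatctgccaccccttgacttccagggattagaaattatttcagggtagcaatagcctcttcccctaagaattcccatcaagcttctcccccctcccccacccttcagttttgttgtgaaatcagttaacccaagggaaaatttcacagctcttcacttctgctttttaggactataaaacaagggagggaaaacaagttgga
Nlrp3: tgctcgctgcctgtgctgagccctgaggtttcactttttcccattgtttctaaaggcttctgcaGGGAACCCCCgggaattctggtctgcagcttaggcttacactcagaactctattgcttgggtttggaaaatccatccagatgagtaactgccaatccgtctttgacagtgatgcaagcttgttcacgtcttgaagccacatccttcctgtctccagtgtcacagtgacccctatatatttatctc

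The run of Il1a holds an AP-1 motif (TGANTCA), which ends 6 bases before the start. The run of Nlrp3 holds an NF-kB consensus match, which begins 186 bases before the start. No match to the 4 motifs is in the run of Il1b. Of 32851 RefSeq start sites, 6.74% had the AP-1 motif in the same window, 3.85% the NF-kB consensus, 2.96% an interferon response motif (GAAA, any 2 bases, GAAA) and 7.0% a GAS motif (TTCNNNGAA). Over the 9 members, Il1rn also had an AP-1 match and Il1r2 a GAS match, both in windows that overlap annotated exons, that of Il1r2 lying by a start 12014 bases from the one given above, and no member had the interferon response motif. A match is a run of letters, and nothing was measured at these sites.

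Cells were assigned to 10 groups by the UMIs of marker genes, with no member among them. T cells (Cd3d, Cd3e, Cd3g) numbered 189 (untreated) and 240 (NAM), and natural killer (NK) cells (Ncr1, Klre1, Eomes) 63 and 34. Dendritic cells fell into mature cells with Ccr7 and Fscn1 (13 and 14), cells with Xcr1 or Clec9a (29 and 32) and cells with Cd209a (38 and 41). Monocytes with Ly6c2 numbered 172 and 181. Macrophages, with 50 or more UMIs of the complement genes C1qa, C1qb and C1qc, numbered 1754 and 2008. They comprised proliferating cells (198 and 211), cells with Vcam1 or Dnase1l3 (456 and 479) and other C1q macrophages (1100 and 1318). Myeloid cells with little C1q, called C1q-low, numbered 446 and 439. The 4 monocyte markers Ly6c2, Plac8, Chil3 and Ccr2 summed to 8208 and 8913 UMIs per 1000000 UMIs of the group (CPM) in the monocytes and to 287 and 283 CPM in the C1q macrophages.

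The limits of these groups are cuts on a range. In the C1q-low group 274 of 885 cells had 20 to 49 C1q UMIs. Among the monocytes 50 of 353 held 4 or 5 Ly6c2 UMIs, and the minimum was 4. Of the Vcam1 Dnase1l3 macrophages 305 of 935 had 4 or 5 UMIs of those genes, and 505 of all 6198 cells (8.15%) fell in no group. Neutrophils, which can hold much Il1b and Il1r2 RNA, were given no group. In all cells, 22 held 5 or more UMIs of S100a8 and S100a9.

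**Figure D1:**
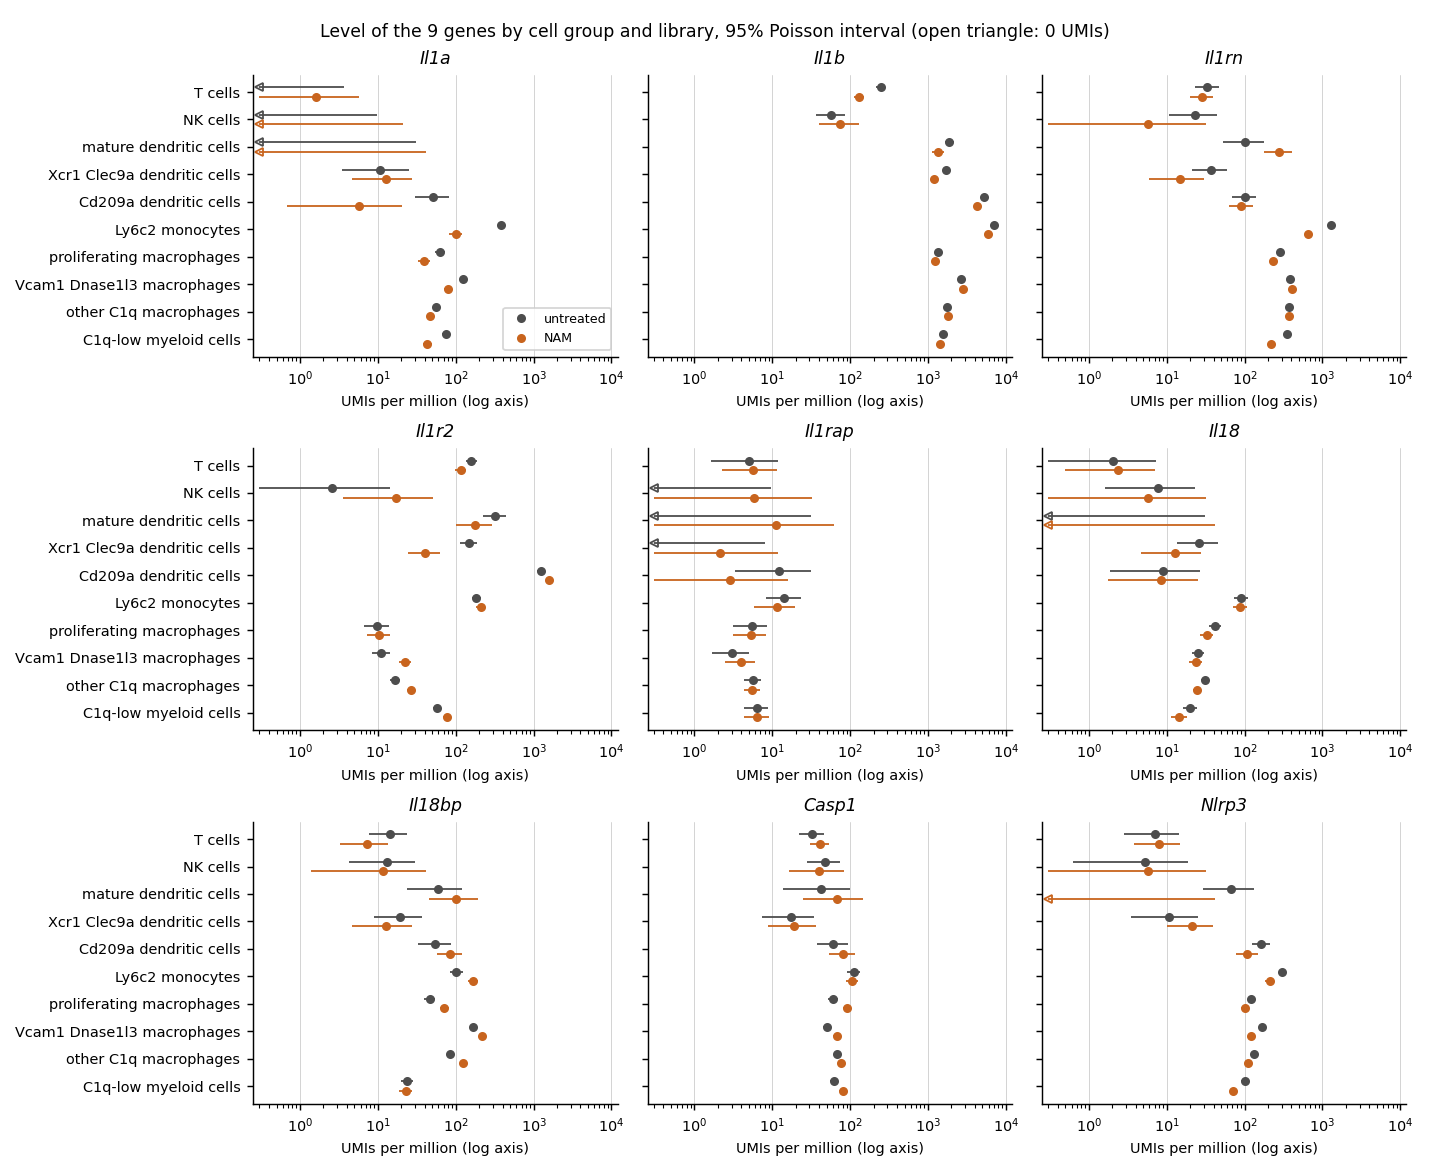
Level of each of the 9 genes in CPM (UMIs per 1000000, log axis) in 10 cell groups, for the untreated library (grey) and the NAM library (orange), with 95% Poisson intervals that cover counting error only; open triangles stand for 0 UMIs. Il1a, Il1b, Il1rn, Il18, Casp1 and Nlrp3 were highest in Ly6c2 monocytes, Il1r2 in Cd209a dendritic cells and Il18bp in Vcam1 Dnase1l3 macrophages.

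Levels are given in CPM of a cell group in each library, with an exact Poisson interval at 95%. Differences are log2 ratios of CPM, NAM over untreated, with an exact conditional binomial interval at 95%. The intervals cover counting error only, and not the spread between cells, mice or libraries. A gene is said to lie past 1.5 fold where it had 100 or more UMIs in the group over both libraries and its ratio was 1.5 or more either way. RNA from broken cells gives UMIs in droplets of cells that do not make it, so the T cells serve as a comparison for myeloid genes. Shares of cells with a UMI were taken after thinning every cell to 3000 UMIs, since the median depth ran from 4276 UMIs in T cells to 15983 in Xcr1 Clec9a dendritic cells of the NAM library.

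Il1a, which encodes interleukin-1 alpha, an alarm cytokine active also as a precursor, was highest in monocytes and had there the log2 ratio farthest from 0 of the 9 genes among those with 100 or more UMIs. In Ly6c2 monocytes it stood at 387 CPM (351 to 425) in the untreated and at 100 CPM (82.1 to 121) in the NAM library. The log2 ratio was −1.94 (−2.27 to −1.64), and only 2 of the 2573 genes with 100 or more UMIs in these cells had a lower one. A UMI of Il1a was found in 19.8% (14.1 to 26.5) of untreated and 9.39% (5.57 to 14.6) of NAM monocytes after thinning, and in 23.8% and 12.7% before. In T cells the thinned shares were 0% and 0.833%, at a median depth of 4457 and 4276 UMIs against 5720.5 and 5211 in monocytes. The count of 0 in 189 untreated T cells allows a share of up to 1.93%.

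Few cells carried most of the Il1a RNA. The 5 monocytes with most UMIs of Il1a held 49.8% (untreated) and 61.3% (NAM) of them, and the highest single cell held 59 UMIs among untreated and 18 among NAM monocytes. Without those 5 cells of each library the log2 ratio was −2.33. On the scale of UMIs per 10000 UMIs of the cell, 6 untreated and 2 NAM monocytes lay at 16 to 32, 5 and 2 at 32 to 64, and 2 and 0 above 64. Thus both the share of monocytes with Il1a and the number of cells with much of it were smaller in NAM. The intervals of the thinned shares overlapped, and the cells with much Il1a were few in both libraries.

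**Figure D2:**
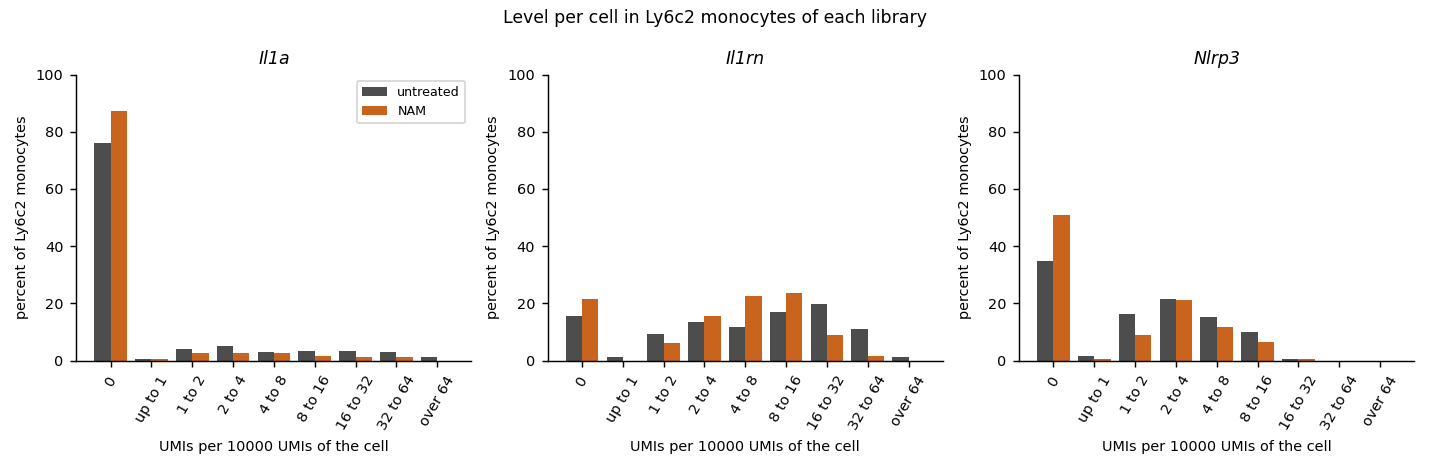
Percent of Ly6c2 monocytes (vertical axis) in each range of UMIs per 10000 UMIs of the cell (horizontal axis) for Il1a, Il1rn and Nlrp3, in the untreated (172 cells, grey) and NAM library (181 cells, orange). Cells without Il1a made up 76.2% and 87.3%, respectively, and for Il1rn the NAM cells gathered at 4 to 16, with few above 32.

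Il1a was also lower in NAM in the other groups with 100 or more UMIs of it. Vcam1 Dnase1l3 macrophages, the next highest group, had 125 CPM (116 to 136) and 78.6 CPM (71.3 to 86.6), a log2 ratio of −0.67 (−0.85 to −0.49). C1q-low myeloid cells had 74.8 and 43.3 CPM, a log2 ratio of −0.79 (−1.04 to −0.54), and proliferating macrophages 62.7 and 39.1 CPM, −0.68 (−1.01 to −0.36). In other C1q macrophages the ratio was smaller, at −0.26 (−0.42 to −0.096), from 55.6 to 46.5 CPM. Il1a lay below 0 in all 5 groups with 100 or more UMIs of it, and past 1.5 fold in 4 of them. These 5 ratios were below 0 under each alternative tried, the one nearest to 0 being −0.21 in other C1q macrophages after thinning. Over all C1q macrophages it went from 74.7 to 53.2 CPM, −0.49 (−0.60 to −0.38). Only 2 UMIs in T cells and none in NK or mature dendritic cells were counted over both libraries.

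Il1b, the precursor of interleukin-1 beta, the main secreted cytokine of the pathway, was present in nearly all monocytes and differed little between the libraries. In Ly6c2 monocytes it stood at 7005 CPM (6851 to 7162) and 5961 CPM (5815 to 6110), a log2 ratio of −0.23 (−0.28 to −0.18). A UMI of it was found in 94.2% and 94.5% of thinned monocytes, against 26.5% and 23.8% of T cells and 15.9% and 23.5% of NK cells. Whether the UMIs in lymphocytes came from free RNA was not tested.

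Cd209a dendritic cells, which present antigen, came next at 5302 CPM (5056 to 5556) and 4280 CPM (4066 to 4502). Their log2 ratio was −0.31 (−0.41 to −0.21). Xcr1 Clec9a dendritic cells, specialised in cross-presentation, had 1724 and 1211 CPM and a ratio of −0.51 (−0.67 to −0.35). Marker sums also differed between the libraries in both groups. In Cd209a dendritic cells the 4 monocyte markers summed to 2692 (untreated) and 1511 CPM (NAM), the mature dendritic markers Fscn1 and Ccr7 to 434 and 108 CPM, with Fscn1 at 0 in both, and the 3 markers of the group itself to 2036 and 1426 CPM. In Xcr1 Clec9a dendritic cells Fscn1 and Ccr7 summed to 773 and 108 CPM, and Xcr1 and Clec9a to 376 and 588 CPM. The part of these markers in the ratios of both groups, here and for the genes below, was not tested. In the 13 and 14 mature dendritic cells the ratio was −0.49 (−0.82 to −0.16), but the 5 highest cells held 96.0% and 78.3% of the UMIs, and it was 1.98 without them. The level of Il1b was thus lower in NAM in all 3 dendritic groups, and that in the mature ones rested on a few cells.

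In macrophages Il1b was near level. Over all C1q macrophages it had 1920 CPM (1901 to 1940) and 1975 CPM (1956 to 1994), a log2 ratio of 0.04 (0.02 to 0.06), which was −0.0069 with every cell thinned to 3000 UMIs. Within them it was highest in the Vcam1 Dnase1l3 subset, at 2664 and 2795 CPM, and lowest in the proliferating one, at 1340 and 1235 CPM. The ratio of the former, 0.07 (0.035 to 0.10), was the highest of Il1b in the 9 groups with 100 or more UMIs, and was −0.24 with the minimums doubled. T cells had the lowest, −0.91 (−1.21 to −0.62), from 246 to 131 CPM. There the 5 highest cells held 67.2% of the untreated and 43.9% of the NAM UMIs, with up to 59 UMIs in a cell. The ratio in T cells was −0.14 without these cells, so it rested on them. The 4 monocyte markers summed to 968 and 1048 CPM in T cells, with Chil3 at 0 in both. The 5 neutrophil markers summed to 18.2 and 104 CPM there. The 3 markers of Cd209a dendritic cells summed to 124 and 0.798 CPM there, and the part of these lists in the result was not tested.

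Il18, the precursor of interleukin-18, which drives interferon gamma in T and NK cells, was a low gene. It was highest in Ly6c2 monocytes, at 90.5 CPM (73.7 to 110) and 88.0 CPM (71.0 to 108), with a log2 ratio of −0.04 (−0.46 to 0.38). In C1q macrophages as a whole there were 31.4 and 25.6 CPM, −0.30 (−0.46 to −0.13). Within them the other C1q macrophages had 31.1 CPM (27.9 to 34.6) and 24.7 CPM (22.0 to 27.5), a ratio of −0.34 (−0.56 to −0.11). The ratio of Il18 lay below 0 in all 5 groups with 100 or more UMIs, and in 2 of them, the other C1q macrophages and the C1q-low cells, the interval left out 0. It turned to 0.078 in monocytes without the 5% of cells with most UMIs and to 0.12 in proliferating macrophages after thinning. In T cells only 2 and 3 UMIs of Il18 were counted.

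Il1rn encodes the interleukin-1 receptor antagonist, which binds the receptor without signalling. It was highest in Ly6c2 monocytes, with 1276 CPM (1210 to 1344) in the untreated and 648 CPM (600 to 698) in the NAM library. The log2 ratio was −0.98 (−1.11 to −0.84), below all but 48 of 2573 genes. The share of thinned monocytes with a UMI was similar, at 71.5% (64.1 to 78.1) and 68.5% (61.2 to 75.2), against 7.41% and 6.67% of T cells. The median monocyte held 7.90 and 4.87 UMIs per 10000, and the upper quartile was 19.2 and 9.65. The shares thus had overlapping intervals, while the amount in the median cell was lower in NAM.

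C1q-low myeloid cells showed the same direction for Il1rn, with 351 CPM (335 to 368) and 219 CPM (206 to 233), a log2 ratio of −0.68 (−0.79 to −0.57). The 5 highest cells held 16.7% and 12.4% of these UMIs. All C1q macrophages, which held 64.6% and 76.1% of all Il1rn UMIs of their library, stood at 361 CPM (352 to 369) and 363 CPM (355 to 371), a ratio of 0.01 (−0.04 to 0.05). Among their subsets proliferating macrophages had a ratio of −0.29 (−0.43 to −0.15) and other C1q macrophages 0.022 (−0.038 to 0.082). Vcam1 Dnase1l3 macrophages had 386 and 411 CPM, a ratio of 0.09 (0.00093 to 0.18), which was −0.052 after thinning. Whether these ratios differ between groups was not tested. The dendritic groups had too few UMIs of Il1rn for a ratio by the minimum used here. Mature dendritic cells had 101 and 279 CPM (12 and 25 UMIs), Cd209a ones 100 and 91.2 CPM, and Xcr1 Clec9a ones 36.7 and 14.8 CPM.

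Il1r2 encodes the decoy receptor, which binds interleukin-1 but lacks a signalling tail. It stood apart from the other members, with its highest level in Cd209a dendritic cells, at 1235 CPM (1118 to 1361) and 1577 CPM (1448 to 1714), a log2 ratio of 0.35 (0.17 to 0.54). A UMI was found in 57.9% and 68.3% of these cells after thinning. The 5 highest cells held 65.4% and 49% of the UMIs, and the ratio was 0.89 without them and 0.11 without the 5% of cells with most UMIs. The level in these cells was thus high in both libraries, while the size of the difference rested on a few of 38 and 41 cells.

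Mature dendritic cells had 320 and 179 CPM of Il1r2, on 38 and 16 UMIs. Ly6c2 monocytes had 185 CPM (160 to 212) and 209 CPM (182 to 238), a log2 ratio of 0.18 (−0.10 to 0.46), which was −0.14 without the 5% of cells with most UMIs. C1q-low cells had 57.0 and 77.1 CPM, 0.44 (0.21 to 0.66), and this ratio ran from 0.41 to 0.85 over the alternatives. The thinned share of these cells with a UMI was 5.61% (3.66 to 8.16) and 11.2% (8.37 to 14.5). In Xcr1 Clec9a dendritic cells 68 and 19 UMIs were counted, too few for a ratio by the minimum used here.

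In C1q macrophages Il1r2 was low, and its ratio was the highest of the 9 genes there. They had 14.2 CPM (12.6 to 16) and 23.0 CPM (21.1 to 25.2), a log2 ratio of 0.70 (0.48 to 0.92), which was 0.41 without the 5% of cells with most UMIs and 0.47 after thinning. The ratio in other C1q macrophages was 0.66 (0.40 to 0.92) and 0.20 without those 5%. Single macrophages held up to 17 UMIs (untreated) and 55 UMIs (NAM). Vcam1 Dnase1l3 macrophages had 11.1 CPM (8.36 to 14.4) and 22.4 CPM (18.6 to 26.9), a ratio of 1.01 (0.54 to 1.5). With the marker minimums doubled it was 0.19, on 55 UMIs. In the same subset the 5 neutrophil markers summed to 54.9 and 115 CPM, all 5 being detected in both libraries, and Fscn1 and Ccr7 to 6.66 and 29.0 CPM. The ratio was 0.94 (0.47 to 1.44) without the cells that held 5 or more UMIs of S100a8 and S100a9, and the part of the mature dendritic markers was not tested. The thinned share of C1q macrophages with a UMI was 3.42% (2.62 to 4.38) and 4.48% (3.62 to 5.48). T cells with Cd8 and no Foxp3 had 3.09% (0.642 to 8.77) and 4.76% (1.94 to 9.57) at a median depth of 4407 and 4492 UMIs, against 10289.5 and 10148.5 in the macrophages. The shares of the macrophages were thus within the intervals of those T cells, and no expression is read from them. The RNA was unevenly spread in both, since the 5 highest C1q macrophages held 19.0% and 21.3% of the UMIs, and the 32 UMIs of the NAM T cells with Cd8 lay in 9 cells. Whether free RNA had a part was not tested.

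T cells carried Il1r2 at 159 CPM (135 to 186) and 116 CPM (97.6 to 136), a log2 ratio of −0.46 (−0.80 to −0.13). Split by markers after these values were seen, T cells with a UMI of Foxp3, the factor of regulatory T cells, had 355 CPM (284 to 438) and 286 CPM (221 to 363). T cells with Cd8a or Cd8b1 and no Foxp3 had 15.8 CPM (6.84 to 31.2) and 41.6 CPM (28.5 to 58.8). The 51 and 54 T cells with neither had 262 CPM (202 to 334) and 183 CPM (134 to 245). Il1r2 was thus low in the T cells with Cd8, which gave 8 of 158 and 32 of 145 UMIs, and higher in the other 2 parts. For Il1b the thinned shares with a UMI were 29.3% and 28.2% with Foxp3, 22.7% and 21.1% with Cd8 and 31.4% and 27.8% with neither, and no order of the parts is read from them. Without the 5 highest T cells of each library the ratio of Il1r2 was −0.064, so it rested on them. The markers of Cd209a dendritic cells, the group highest in Il1r2, were at 124 and 0.798 CPM in T cells, as given above, and their part in this ratio was not tested.

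Il18bp encodes the interleukin-18 binding protein, a soluble trap that is known as an interferon-induced gene. It was highest in Vcam1 Dnase1l3 macrophages, at 169 CPM (158 to 181) and 219.7 CPM (207 to 233), with a log2 ratio of 0.38 (0.25 to 0.51). Ly6c2 monocytes had 102 CPM (84.2 to 123) and 166 CPM (143 to 193), a ratio of 0.70 (0.36 to 1.06), above all but 60 of 2573 genes. All C1q macrophages had 100 CPM (95.7 to 105) and 138 CPM (133 to 143), a ratio of 0.46 (0.38 to 0.55). These macrophages held 83.7% and 86.8% of all Il18bp UMIs.

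The share of thinned C1q macrophages with an Il18bp UMI was 22.7% (20.8 to 24.8) without and 31.8% (29.7 to 33.9) with NAM, and in monocytes 23.8% (17.7 to 30.9) and 36.5% (29.5 to 43.9). In T cells it was 3.70% and 2.50%. Proliferating macrophages had a log2 ratio of 0.63 (0.33 to 0.94), which was 0.53 without the 5% of cells with most UMIs, and other C1q macrophages had 0.53 (0.41 to 0.65). The exception was the C1q-low group, with 23.7 and 23.0 CPM and −0.05 (−0.43 to 0.34). No single cell stood out, since the 5 highest C1q macrophages held 2.95% and 2.13% of the UMIs. In each of the 5 groups with 100 or more UMIs of both genes Il18bp had a higher ratio than Il18, and the smallest gap was 0.43, in the C1q-low cells.

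Il1rap encodes the accessory chain that the interleukin-1 receptor needs to signal. It was the lowest of the 9 genes in UMIs, with 162 in all untreated and 176 in all NAM cells. All C1q macrophages had 4.93 CPM (3.99 to 6.02) and 5.10 CPM (4.19 to 6.14), a log2 ratio of 0.05 (−0.36 to 0.46). Monocytes had 14.3 and 11.4 CPM on 16 and 12 UMIs. T cells were at 5.04 and 5.58 CPM, close to macrophages, and the thinned shares with a UMI were 1.88% and 1.29% in macrophages and 1.59% and 2.50% in T cells. In macrophages the interval lay within 1.5 fold either way, and after thinning, on 60 UMIs, the ratio was −0.48 (−1.27 to 0.29). Of the 10 separate groups, the other C1q macrophages alone had 100 or more UMIs of Il1rap.

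Casp1 encodes caspase-1, the protease that matures interleukin-1 beta and interleukin-18. UMIs of it were counted in lymphocytes as well as myeloid cells. Ly6c2 monocytes had 111 CPM (92.4 to 132) and 106 CPM (87.2 to 127), a log2 ratio of −0.07 (−0.45 to 0.31), and T cells 32.3 and 40.7 CPM. The thinned share of T cells with a UMI was 7.41% (4.11 to 12.1) and 11.7% (7.89 to 16.4), and whether these came from free RNA was not tested. Over all C1q macrophages Casp1 had 61.9 CPM (58.5 to 65.6) and 76.3 CPM (72.7 to 80.1), a ratio of 0.30 (0.19 to 0.41). The proliferating ones went from 60.8 to 91.0 CPM, 0.58 (0.32 to 0.85), just under 1.5 fold. C1q-low cells had 0.37 (0.15 to 0.59), with a thinned share of 12.1% (9.23 to 15.5) and 21.2% (17.5 to 25.3), and the ratio was 0.91 after thinning. Casp1 thus was above 0 with an interval that left out 0 in 4 of 5 groups, and not in monocytes, where the ratio was 0.11 after thinning.

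Nlrp3 encodes the sensor that assembles the inflammasome and is itself induced by NF-kB signals. It was highest in Ly6c2 monocytes, at 306 CPM (275 to 341) and 211 CPM (184 to 241), a log2 ratio of −0.54 (−0.79 to −0.29). The thinned share of monocytes with a UMI was 48.3% (40.6 to 56.0) and 35.9% (28.9 to 43.4), against 2.12% and 2.08% of T cells. Over all C1q macrophages Nlrp3 had 139 CPM (133 to 144) and 112 CPM (107 to 116), a ratio of −0.31 (−0.39 to −0.23). As for Il1a, its interval lay below 0 in each of the 5 groups with 100 or more UMIs, from −0.54 in monocytes to −0.24 (−0.34 to −0.13) in other C1q macrophages. Vcam1 Dnase1l3 macrophages had 167 and 121 CPM, a ratio of −0.46 (−0.61 to −0.31). None of these passed 1.5 fold. After thinning 1 did, at −0.62 in C1q-low cells, and without the 5 cells with most UMIs of Nlrp3 the ratio in monocytes was −0.61. Cd209a dendritic cells, on 54 and 38 UMIs, had 164 and 108 CPM.

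The orders of the members' levels are given here by point values. Some counting intervals overlap, as for Il18bp in NAM monocytes (143 to 193) and untreated Vcam1 Dnase1l3 macrophages (158 to 181 CPM). For Il1b the level in Ly6c2 monocytes was above that in Cd209a dendritic cells in both libraries, and that in turn above Vcam1 Dnase1l3 macrophages. For Il1rn, Il18, Casp1 and Nlrp3 the 2 libraries of the monocytes lay above the next group as well. For Il1a they did not, since the NAM monocytes at 100 CPM lay below the untreated Vcam1 Dnase1l3 macrophages at 125 CPM. For Il18bp the monocytes, at 102 and 166 CPM, lay below both values of the Vcam1 Dnase1l3 subset and overlapped the other C1q macrophages, at 84.8 and 122 CPM. For Il1r2 the mature dendritic cells and the monocytes overlapped.

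**Figure D3:**
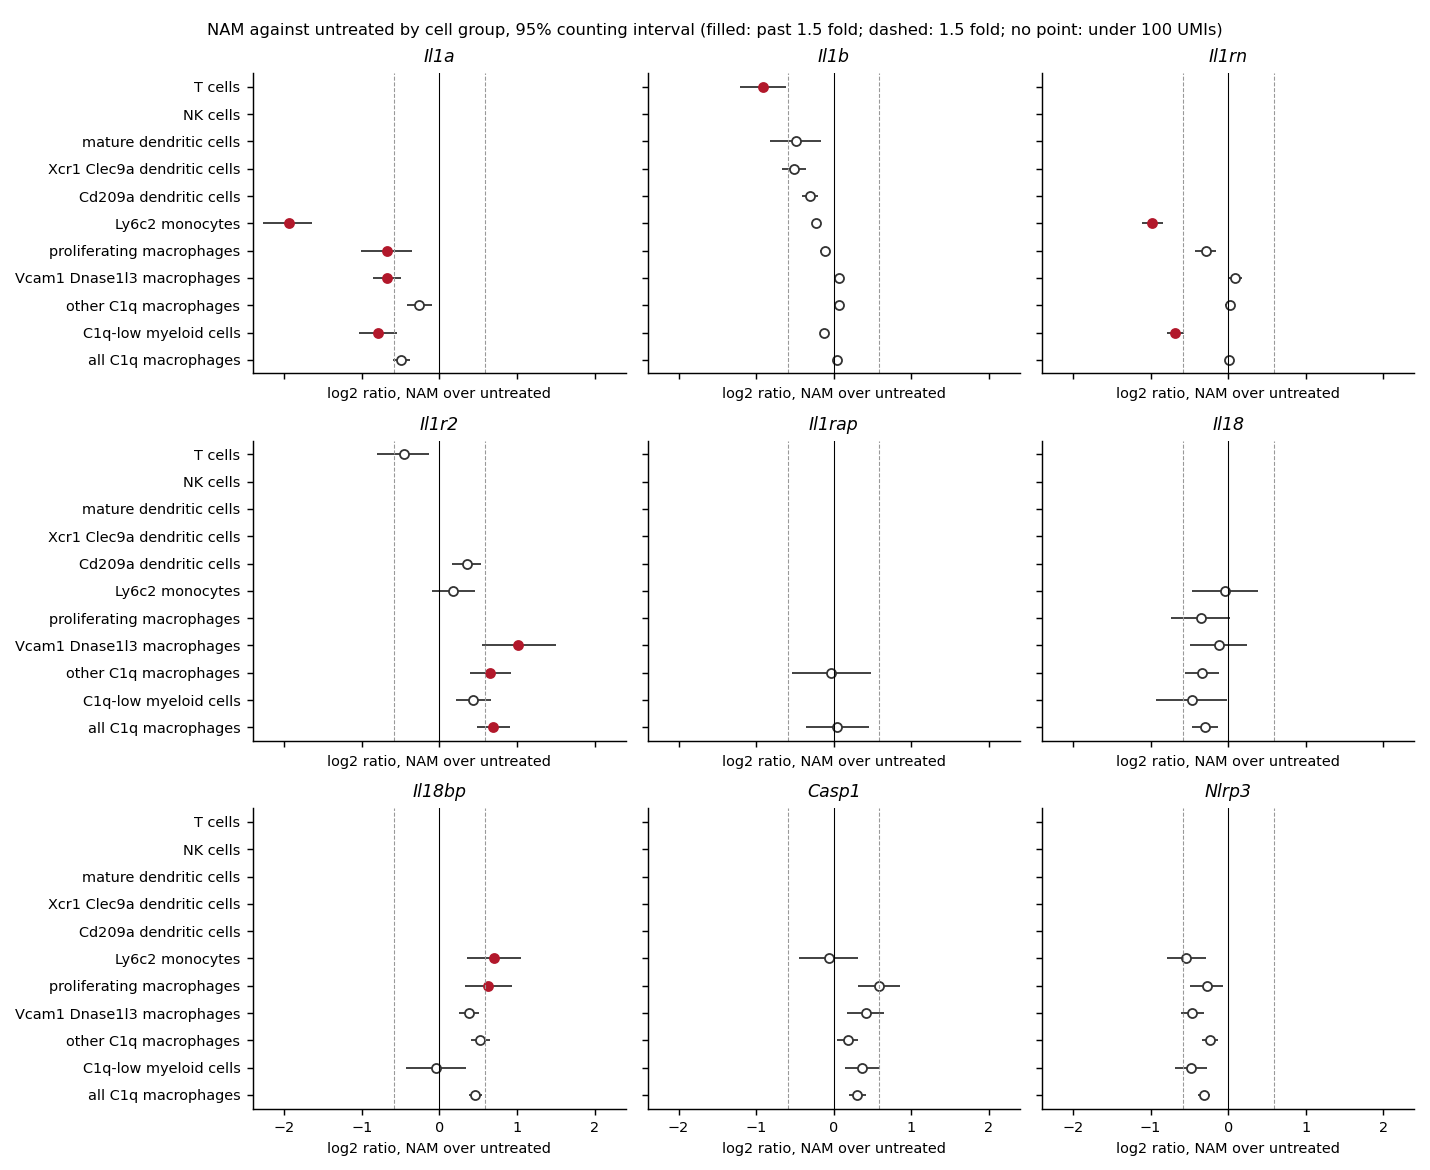
Log2 ratio of CPM, NAM over untreated (horizontal axis), with 95% counting intervals, for each of the 9 genes in 10 cell groups and over all C1q macrophages; filled points lie past 1.5 fold (dashed lines), and groups with under 100 UMIs have no point. Il1a and Nlrp3 lie below 0 in all 5 separate groups shown, and the ratio of Il1rn runs from −0.98 in monocytes to 0.09 in Vcam1 Dnase1l3 macrophages.

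Counted over the 9 genes, Ly6c2 monocytes had 8 with 100 or more UMIs, of which Il18bp was higher and Il1a and Il1rn lower past 1.5 fold. Over all genes of these cells 10.7% passed. C1q-low cells had 8, of which Il1a and Il1rn were lower (5.10% of all genes passed). In all C1q macrophages 1 of 9 passed, Il1r2 (4.86%). By subset 2 of 7 passed in proliferating macrophages (Il18bp and Il1a; 4.02%), 2 of 8 in Vcam1 Dnase1l3 macrophages (Il1r2 and Il1a; 5.71%) and 1 of 9 in other C1q macrophages (Il1r2; 4.73%). T cells had 1 of 2, Il1b (7.23%). No member passed among 2 in Cd209a dendritic cells (13.3%), 1 in Xcr1 Clec9a dendritic cells (14.4%) and 1 in mature dendritic cells (11%), and in NK cells none had 100 UMIs (7.35%).

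These counts are of few genes. Since the members were chosen with earlier results of these data known, nothing is read from the counts. The median log2 ratio of the members was −0.15 in monocytes, 0.04 in all C1q macrophages and −0.30 in C1q-low cells, beside −0.01, −0.03 and −0.01 over all genes with 100 or more UMIs. The 9 genes did not share 1 direction in monocytes or macrophages. In all 3 groups Il1a had the lowest ratio of the members, while the highest was Il18bp in monocytes and Il1r2 in the other 2.

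**Figure D4:**
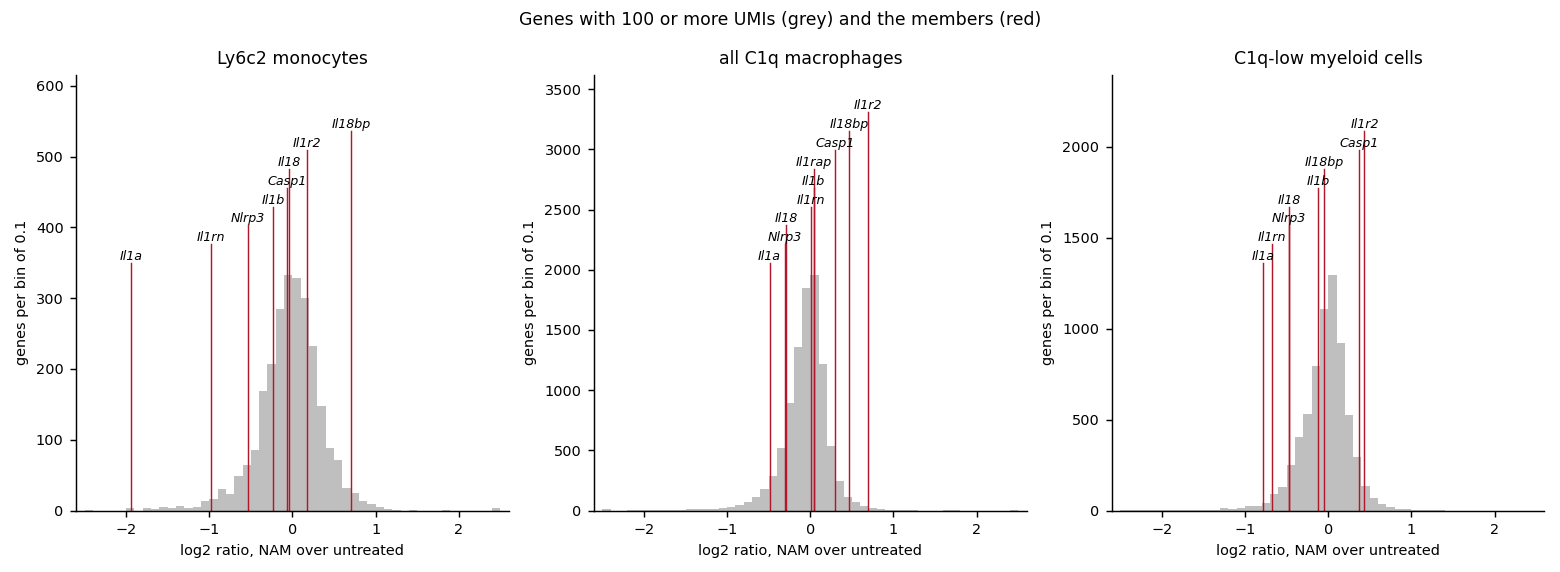
Number of genes per bin of 0.1 of the log2 ratio, NAM over untreated, among genes with 100 or more UMIs (grey) in Ly6c2 monocytes, all C1q macrophages and C1q-low myeloid cells, with the members as red lines and genes beyond the axis counted in the end bins. Il1a at −1.94 lies at the lower edge of the monocyte genes, while Il1b lies within 0.58 of 0 in all 3 groups.

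Signs of other cell types were measured in the same groups. The 5 neutrophil markers S100a8, S100a9, Csf3r, Cxcr2 and Retnlg summed to 88.7 CPM in untreated and 52.0 CPM in NAM monocytes, with Retnlg at 0 in both. In all C1q macrophages they summed to 66.5 and 77.2 CPM, and the higher sum of the NAM Vcam1 Dnase1l3 subset is given above. In monocytes the ratio of Il1a was −1.84 and that of Il1rn −0.96 without the cells that held 5 or more UMIs of S100a8 and S100a9, a step chosen after the data were seen. In C1q-low cells the 3 C1q genes summed to 1554 and 1184 CPM, Fscn1 and Ccr7 to 24.1 and 6.51 CPM and the 3 markers of Cd209a dendritic cells to 13.4 and 5.29 CPM, and their part in the ratios of that group was not tested.

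Within C1q-low cells several members were found mostly in the cells with Il1b. After thinning, 255 of 446 untreated and 252 of 439 NAM cells had an Il1b UMI. Of these 62.7% and 51.6% also had Il1rn, against 19.4% and 15.5% of the cells without Il1b. For Nlrp3 the shares were 46.7% and 39.3% against 7.85% and 4.81%, and for Il1a 18.8% and 13.9% against 1.57% and 2.14%. Casp1 did not follow Il1b, with 12.9% and 19.0% against 11% and 24.1%. The C1q-low group thus held both cells with these RNAs and cells with few of them. All C1q macrophages showed the same direction, with Il1rn in 49.5% and 50.4% of cells with Il1b against 35.6% and 34.9%. For Nlrp3 the shares there were 34.0% and 27.0% against 15.5% and 12.5%, and for Il1a 13.6% and 10.8% against 4.06% and 2.81%.

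Other genes of the pathway were taken from a list of 51, all present in the tables. None of the 6 further ligands, among them Il33 and the interleukin-36 genes, reached 100 UMIs in monocytes, C1q macrophages or C1q-low cells. Of the 6 other receptors 1 did so in C1q macrophages and none in the other 2 groups. Of all 51, monocytes had 17 with 100 or more UMIs, of which 1 was higher and 5 lower past 1.5 fold in NAM (10.7% of all genes passed). All C1q macrophages had 33 with 0 higher and 2 lower (4.86%), and C1q-low cells 27 with 1 higher and 2 lower (5.10%). The count in C1q macrophages was near the share over all genes. Of the lower ones 4 in monocytes, 2 in C1q macrophages and 2 in C1q-low cells were among 9 genes known to be induced by interleukin-1 and other NF-kB signals.

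Cxcl1, a chemokine that draws neutrophils, was past 1.5 fold lower in 6 of the 10 groups and in all C1q macrophages. It had 1517 and 603 CPM in monocytes, a log2 ratio of −1.33 (−1.46 to −1.20), and 679 and 323 CPM in all C1q macrophages, −1.07 (−1.11 to −1.03). In C1q-low cells its ratio was −1.44 (−1.52 to −1.35). Its relative Cxcl3 had 17.6 and 4.91 CPM in all C1q macrophages, a ratio of −1.84 (−2.17 to −1.53), and −0.62 in monocytes. Cxcl2 was lower in Vcam1 Dnase1l3 macrophages, at −0.60 (−0.64 to −0.56), and in Xcr1 Clec9a dendritic cells, at −1.15 (−1.77 to −0.58), where Nfkbia, an inhibitor of NF-kB, had −0.63 (−0.88 to −0.39). Ptgs2, which makes prostaglandins, had 531 and 338 CPM in monocytes, −0.65 (−0.85 to −0.46), and −0.97 (−1.15 to −0.80) in C1q-low cells. Nfkbiz, a nuclear NF-kB cofactor, had −0.77 (−1.04 to −0.51) in monocytes. Of the 8 induced genes that could be compared in monocytes 4 were lower past 1.5 fold, beside 6.72% of all genes there. The list was drawn up with earlier results of these data known, so nothing is read from that count. Tnf had −0.21 (−0.50 to 0.07) in monocytes and 0.41 (0.35 to 0.48) in all C1q macrophages.

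Among the other inflammasome genes few differed as much. Mefv, which encodes the sensor pyrin, was lower in monocytes, at −0.90 (−1.42 to −0.41), and Txnip, a thioredoxin-binding protein, was higher there, at 0.84 (0.27 to 1.44). Txnip was lower in proliferating macrophages, at −0.80 (−1.14 to −0.47). Aim2, a sensor of DNA, was higher in C1q-low cells at 0.78 (0.21 to 1.39), on 40 and 69 UMIs. Pycard, the adaptor between sensor and caspase-1, was higher in Cd209a dendritic cells, at 0.67 (0.07 to 1.30), and had 0.10 (−0.26 to 0.46) in monocytes and 0.21 (0.14 to 0.28) in all C1q macrophages. Gsdmd, whose product forms the pore of pyroptosis, had −0.19 (−0.58 to 0.20) and 0.16 (0.05 to 0.27). The adaptor and the pore gene were thus within 1.5 fold in monocytes and C1q macrophages. In T cells Nek7, a partner of NLRP3, was lower, at −0.79 (−1.28 to −0.31).

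Likeness of pattern was described over 20 points, the 10 cell groups in each library, as Pearson correlation of log2(CPM + 1) among 9397 genes with 200 or more UMIs. The points share libraries, and groups differ in depth, so no p is given. The closest gene to Il1a was Cmklr1 (r = 0.94), to Il1b Picalm (0.96), to Il1rn Slc7a7 (0.95) and to Nlrp3 Plaur (0.95), the urokinase receptor. Il18bp was closest to Cyba (0.95), a subunit of the phagocyte oxidase, Il18 to Tor3a (0.93) and Il1rap, at few UMIs, to Dhx40 (0.81). Casp1 was closest to Oas1a (0.95) and then to Casp4 (0.94), another inflammatory caspase. Il1r2 had its closest gene in Mcemp1 (0.84) and did not follow the other members, with r from −0.29 to 0.46. Among the members the closest pair was Il1a and Il18 (0.86), followed by Il1a and Nlrp3 (0.84).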

How the data were processed

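CD45+ cells of TSA tumours were profiled as 2 libraries with the 10x Genomics Single Cell 3′ version 2 kit. The authors deposited raw UMI counts per gene and cell, made with Cell Ranger 2.1.0 on mm10, and the methods also name Seurat 2.3.4. The annotation version is not given in the sources used here. All deposited barcodes passed the stated filter (1000 genes, 3000 UMIs, 10% mitochondrial UMIs). Doublets were neither called nor removed.

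Cells were assigned by minimum marker UMIs: 3 for the Cd3 genes, 2 for the NK genes with 1 of Ncr1, 2 for Fscn1 with 1 of Ccr7, 2 for Xcr1 and Clec9a, 2 for Cd209a, 4 for Ly6c2, 50 for C1q with 3 for Csf1r, Adgre1 and Fcgr1, 5 for Top2a, Birc5 and Ube2c and 4 for Vcam1 and Dnase1l3. A further planned macrophage subset is not reported here, and its cells were placed with the other C1q macrophages and the Vcam1 Dnase1l3 cells after member values had been tabulated. Lymphocytes, dendritic cells and monocytes had under 20 C1q UMIs and C1q-low cells under 50. Member genes, pathway genes and gates were chosen with earlier results of these data known. UMIs were summed per group and library and divided by the group total. Ratios used a pseudocount of 0.5 UMIs, and a log2 ratio of 0.58 is 1.5 fold. Thinning to 3000 UMIs (seed 1) left out 0 cells. Intervals are at 95%, Poisson for CPM and Clopper-Pearson for shares, and cover counting error only. Pathway genes were named where past 1.5 fold with 100 or more UMIs, and Tnf, Pycard and Gsdmd were added after their values were seen. The alternatives were another scaling, thinning, stricter gates, another pseudocount, other cuts and cells left out. Python 3.11.15, NumPy 2.4.6, SciPy 1.17.1, pandas 2.3.3 and matplotlib 3.10.9 were used, and the steps were tested on simulated data.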

Additional observations from a re-analysis of the deposited data

Results flagged for a closer look

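For 3 genes the log2 ratio, NAM over untreated, lay above 0 in one cell group and below 0 in another, with intervals that left out 0 on both sides. With 1 library per group the difference between groups was not tested. Il1b had 0.069 (0.035 to 0.10) in Vcam1 Dnase1l3 macrophages and −0.91 (−1.21 to −0.62) in T cells, and the former was −0.24 with doubled gate minimums and the latter −0.14 without the 5 highest cells of each library. Il1rn had 0.090 (0.00093 to 0.18) in Vcam1 Dnase1l3 macrophages, which was −0.052 after thinning, and −0.98 (−1.11 to −0.84) in Ly6c2 monocytes. Il1r2 had 1.01 (0.54 to 1.5) in Vcam1 Dnase1l3 macrophages, which was 0.19 with doubled gate minimums, and −0.46 (−0.80 to −0.13) in T cells, which was −0.064 without the 5 highest cells of each library.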

How the results depend on the processing

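No paired analysis was possible because each group had 1 library. With 1 pool per group the intervals understate the error. Il1rap had under 100 UMIs in each group outside the C1q macrophages, as did most members in NK and dendritic cells. Of 55 log2 ratios of members with 100 or more UMIs, 55 kept their sign with a pseudocount of 1 UMI, without shared barcodes, under median-ratio scaling and without cells with 5 or more S100a8 and S100a9 UMIs (chosen after seeing the data), 54 without the 5 cells with most UMIs of the gene, 53 with doubled gate minimums, 49 without the 5% of cells with most UMIs and 48 after thinning. Under doubled minimums Il1r2 in Vcam1 Dnase1l3 macrophages went from 1.01 to 0.19 (−0.62 to 1.03). In all C1q macrophages Il1b (0.04) was 0.069 under median-ratio scaling, −0.0069 after thinning and −0.0011 without the 5% of cells. There, thinning gave −0.078 for Il1rn (0.0076), 0.47 for Il1r2 (0.70), 0.57 for Il18bp (0.46) and −0.45 for Nlrp3 (−0.31), and leaving out the 5% gave −0.64 for Il1a (−0.49), −0.052 for Il1rn and 0.41 for Il1r2. In Ly6c2 monocytes Il1a (−1.94) was −2.33 without its 5 highest cells, and the range over all alternatives was −2.33 to −1.68. The members were chosen with earlier results of these data known, so nothing is read from the counts that follow. Over the 10 groups 4 of 46 ratios were past 1.5 fold higher and 7 lower (1.87% and 4.25% over all genes). With 20 or more UMIs these were 6 and 12 of 64 (6.25% and 9.75%), past a log2 ratio of 0.32 either way 11 and 16 (8.87% and 13.7%), and at 2 fold 1 and 1 (0.234% and 1.08%). Of the 12 ratios past 1.5 fold, all C1q macrophages included, 9 stayed past it on the same side after thinning and 9 without the 5% of cells, 10 without the 5 highest cells, 11 with doubled minimums and 12 under the other 4 settings.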
